A study of Mus musculus with 192 samples.

Results

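RNA of E14 mouse embryonic stem cells (mESCs) transfected with an inhibitor of miR-23b-5p was compared with RNA of the same cells transfected with the scrambled inhibitor, a control oligo that is directed against no miR. The members are the 6 libraries that the labels assign to these 2 reagents, 3 libraries each, out of 192 samples in the series. All cells were wild-type E14 cells kept in modified 2i medium (a MEK inhibitor, a GSK3 inhibitor and mLIF), moved to 2i with 10% FBS shortly before transfection, and transfected with Lipofectamine RNAiMax complexes. The inhibitors were miRCURY LNA miRNA Power Inhibitors, which the labels give as used at 2X (1X is 100 nM) for 48 h. The 3 libraries per group are biological replicates from batches b1b, b2 and b3, and each batch holds 1 library of each of 16 conditions (48 libraries), among them an untreated control that serves here as a second reference. According to the labels the RNA came from cells fixed in paraformaldehyde, which the study's methods do not state for the RNA libraries. E14 is a single line, so the results describe that line only.

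A miR is a short RNA that guides the Argonaute complex to messenger RNAs, mostly by pairing of its seed (bases 2 to 8) with the 3′ UTR, and thereby lowers their stability or translation. An LNA inhibitor is a modified oligo that pairs with the mature miR and keeps it from its targets, so direct targets of an active miR would be looked for among transcripts with higher levels after inhibition. The study's kinetic model predicted miR-23b-5p as a regulator of Acad8, one of the genes followed up by transfection. Its models of Gnb2 and Nipsnap1 also include the miR, and Hmgb2 is a target known from earlier work. A gene's length can be taken as its genomic span, introns included, or as the length of its spliced transcript. Span sets how long RNA polymerase II needs to transcribe the gene, and transcript length how many fragments a transcript gives in sequencing.

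The mature sequence of miR-23b-5p and the seed matches in the predicted targets show what the inhibitor was directed at (sequences from RefSeq and the GRCm38.p6 genome, 5′ to 3′). The miR lies at chr13:63300492-63300512 on the plus strand, within the Mir23b hairpin, and capitals mark its seed.
miR-23b-5p: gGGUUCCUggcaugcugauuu
The complement of the seed, AGGAACC, was searched on the sense strand of the 3′ UTR of each gene's longest annotated protein-coding transcript only. In capitals below is that match with the bases around it.
Acad8, chr9:26975187-26975216, minus strand: tagggtgcacctttaactccAGGAACCatg
Gnb2, chr5:137528139-137528168, minus strand: tattttcagtttttccataaAGGAACCact
Nipsnap1, chr11:4893766-4893795, plus strand: acatgagacagccttgaagcAGGAACCctt
The match starts at base 512 of 1573 in the 3′ UTR of Acad8, at base 355 of 376 in that of Gnb2 and at base 602 of 1016 in that of Nipsnap1. No match was in the 1872 bases of the Hmgb2 3′ UTR. The same 7 bases were in 9.35% of 20969 annotated 3′ UTRs and in 10.6% of the 12688 UTRs of tested genes.

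The cells held little miR-23b-5p before differentiation. In 4 small RNA libraries of undifferentiated cells (0 h of retinoic acid), miR-23b-5p was at 65.0, 39.4, 32.3 and 36.4 CPM (here counts scaled to 1e+06 miR reads of the library), which ranked it 339 to 386 among 1978 listed mature miRs. The other arm of the hairpin, miR-23b-3p, was at 1346 to 1970 CPM in the same libraries. During differentiation the 5p arm was lower, with 2.13 to 7.58 CPM at 96 h. The small RNA libraries were not made from the transfected cells, so the level after inhibition was not measured.

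The miR-23b-5p libraries held 20.1, 44.1 and 20.2 M counts (1 M is 1e+06) in batches b1b, b2 and b3, the scrambled libraries 23.5, 23.8 and 9.70 M, and the untreated libraries 14.9, 14.9 and 9.93 M. The miR-23b-5p library of batch b2 was the deepest of the 48. Mean fragment lengths were 473, 464 and 435 bases with the miR-23b-5p inhibitor, 411, 497 and 503 with scrambled and 446, 422 and 419 in untreated cells. Markers of mESCs were high in all 6 libraries of the comparison (Pou5f1 9653 to 42558 counts), and some markers of other states or cell types were detected as well. Of 9 fibroblast markers, Col3a1 and Postn had 0 counts in each library and Lum, Dcn and Acta2 at most 4, but Vim had 2784 to 8454 counts with the inhibitor and 2068 to 5296 with scrambled, and Col1a1 80 to 194 and 20 to 87. Of 9 trophoblast markers, Tpbpa had 0 counts in each and Elf5 and Plac1 at most 2, while Tfap2c had 1447 to 3292 with the inhibitor and 770 to 1740 with scrambled. Of 10 markers of the primed and formative states, Fgf5 had 0 or 1, while Dnmt3b had 1107 to 1917 with the inhibitor and 575 to 1234 with scrambled. These marker counts are not scaled for library depth, so their ranges do not compare the groups. In the test that accounts for depth, Vim had a log2 fold change of -0.03 (adjusted p = 0.978, edgeR). Col1a1 had one of 0.47 (adjusted p = 0.664, edgeR). No pair of the 6 libraries was alike within sampling noise. The closest pair, the miR-23b-5p and scrambled libraries of batch b3, differed by 3.91 times that noise (median squared difference over its sampling expectation).

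None of the 3 predicted targets, nor Hmgb2, passed the test, and inhibitor and scrambled libraries overlapped for each. CPM of RNA libraries are counts scaled to 1e+06 with TMM factors over all 48 libraries. Acad8, an acyl-CoA dehydrogenase of valine breakdown (ENSMUSG00000031969, chr9:26974135-26999566), was at 33.1, 31.1 and 30.0 CPM with the miR-23b-5p inhibitor and at 28.4, 30.0 and 31.3 CPM with scrambled. The log2 fold change was 0.07 ± 0.12 (SE, n = 3 per group, adjusted p = 0.953, one-sided p for a rise 0.291, edgeR's quasi-likelihood test). It was higher in batches b1b and b2 and lower in batch b3, and the sign changed when a batch b1b library was left out. Gnb2, a G protein beta subunit (chr5:137528127-137533510), had 182, 162 and 194 CPM with the inhibitor and 192, 214 and 207 CPM with scrambled, a log2 fold change of -0.19 ± 0.10 (SE, adjusted p = 0.688). That difference was below 0 in all 3 batches, and its one-sided p for a rise was 0.958.

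Nipsnap1, a mitochondrial protein with a role in mitophagy (chr11:4873951-4894200), was at 158, 162 and 133 CPM with the inhibitor and 206, 137 and 127 CPM with scrambled (log2 fold change -0.03 ± 0.12, SE, adjusted p = 0.978, edgeR). The scrambled library of batch b1b lay above the other 5 libraries. Over untreated cells the difference was 0.24 (adjusted p = 0.249, edgeR). Hmgb2, a chromatin protein of the HMG-box family (chr8:57511907-57515999), had 457, 414 and 523 CPM with the inhibitor and 479, 413 and 479 CPM with scrambled (log2 fold change 0.02 ± 0.10, SE, adjusted p = 0.982). One-sided p for a rise was 0.588 for Nipsnap1 and 0.429 for Hmgb2.

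**Figure D1:**
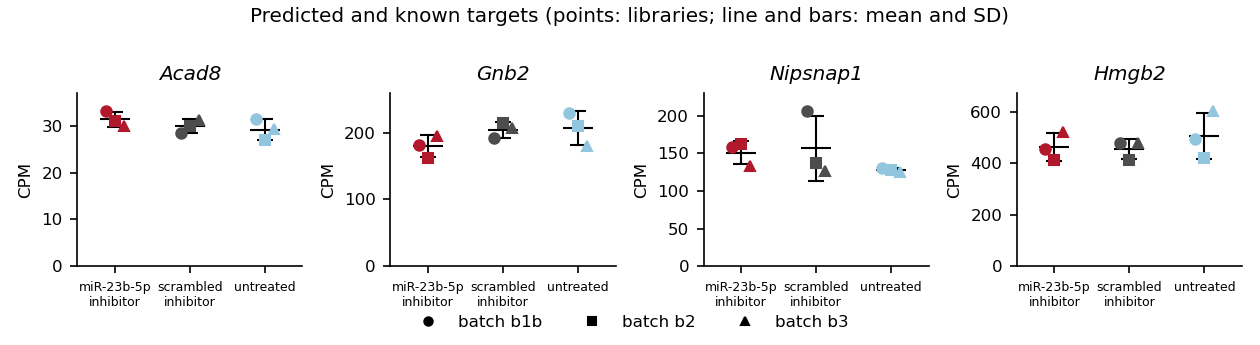
CPM (y axis, from 0) of Acad8, Gnb2, Nipsnap1 and Hmgb2 in the miR-23b-5p inhibitor, scrambled inhibitor and untreated libraries, one point per library with its shape for the batch, and lines and bars for mean and SD (n = 3). Inhibitor and scrambled points overlap for all 4 genes, and the Nipsnap1 scrambled point of batch b1b, at 206 CPM, lies above the other points of that panel.

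Over all tested genes with a 3′ UTR, those with a match were not higher in the median than those without it. The median log2 fold change was -0.0123 for 1347 tested genes with the match and -0.000757 for 11341 without it. Of the genes with the match, 1 was higher and 0 were lower at an adjusted p of at most 0.01, against 3 higher and 2 lower without it. In 4 bins of 3′ UTR length from short to long, the medians with the match were -0.024, -0.026, -0.0041 and -0.0091. Those without it were 0.0078, -0.0049, -0.0077 and 0.0014, so in the bin at -0.0041 the order was reversed.

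Of 13618 tested genes (mean count above 20), 6 were higher (0.0441%) and 2 lower (0.0147%) at an adjusted p of at most 0.01 in edgeR's quasi-likelihood test with batch as block. The 6 include Pde2a and Pgk1-rs7 and the 2 include Gm45837. Summed with the genes that share their sequence, the values of each overlapped between the groups, as given below. At an adjusted p of at most 0.05, 19 were higher (0.14%) and 26 lower (0.191%). DESeq2 called 10 higher (0.0734%) and 22 lower (0.162%) at 0.01. Without the batch block, edgeR called 0 higher and 1 lower at 0.01, with 277 higher and 326 lower at an unadjusted p under 0.05. Over untreated cells 0 passed 0.01 in either direction, with 877 higher and 1067 lower at an unadjusted p under 0.05 (DESeq2 was not run for that reference), and 4 were higher (0.0297%) and 3 lower (0.0223%) at 0.05. The count of higher genes at 0.01 rests on the deepest library. Without the miR-23b-5p library of batch b2, 0 were higher and 2 lower, with 506 and 728 at an unadjusted p under 0.05. Without that of batch b1b they were 18 and 10, and without that of batch b3 33 and 16. Leaving out the scrambled library of batch b1b, b2 or b3 gave 31 and 31, 9 and 17, and 34 and 17. The fallen genes named below kept their sign in each of these fits, except Gata2 over untreated cells.

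The genes that fell were mostly genes of very long genomic span. At an adjusted p of at most 0.05, 26 genes fell, all protein-coding, with Gm45837 counted among them. That number depended on the fit: edgeR called 1 lower at 0.05 without the batch block and 3 without the miR-23b-5p library of batch b2, against 38 to 79 when one of the other 5 libraries was left out. Of the 26 fallen genes, 19 (73.1%) were in the top 10% of all tested protein-coding genes by span. The median span of the 26 was 349 kb, against 24.1 kb for the 12807 tested protein-coding genes. All but 1 of the 26 had CPM values in the 3 inhibitor libraries below all 3 scrambled libraries. Over all tested genes this share was 4.47%. The 26 were picked by their p in these same libraries, so the separation is no added support. The fallen genes other than Trappc9 and Gm45837 passed 0.05 and not 0.01, and were named after their values had been seen.

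Trappc9, a subunit of the TRAPP complex of vesicle traffic at the Golgi (ENSMUSG00000047921, chr15:72589620-73061204, a span of 472 kb with 18 exons), passed 0.01, and no 50-base stretch of its transcript was found in another gene. It was at 32.4, 35.9 and 38.3 CPM with the miR-23b-5p inhibitor, at 62.6, 72.2 and 59.4 CPM with scrambled and at 72.2, 72.5 and 51.5 CPM in untreated cells. The inhibitor libraries lay below all 6 controls, with a log2 fold change of -0.87 ± 0.12 (SE, n = 3 per group, adjusted p = 0.00492, edgeR). The difference was -0.95, -1.01 and -0.63 in the 3 batches, and over untreated cells -0.87. Its adjusted p was 0.0953 without the block and 0.0808 without the miR-23b-5p library of batch b2.

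Clasp2, Exoc4, Tiam1 and Dock1 were among the fallen genes, whereas of the 37 giant cytoskeletal and motor genes in a list of that name 0 passed 0.05 in edgeR's test (21 above and 16 below 0). Clasp2, which binds growing microtubule ends (span 178 kb), was at 55.6, 69.9 and 75.5 CPM with the inhibitor and 120, 105 and 117 CPM with scrambled (log2 fold change -0.78 ± 0.12, SE, adjusted p = 0.012, edgeR). Exoc4, the Sec8 subunit of the exocyst (725 kb), was at 220, 254 and 250.1 CPM with the inhibitor and 406, 407 and 341 CPM with scrambled (-0.68 ± 0.11, adjusted p = 0.014, edgeR). For both genes every inhibitor library was lower than every scrambled and untreated library. Tiam1, an activator of the GTPase Rac (357 kb), was at 55.9, 59.7 and 90.5 CPM with the inhibitor and 94.3, 112 and 116 CPM with scrambled (-0.68, adjusted p = 0.0205). The batch b3 inhibitor library of Tiam1 was close to the lowest scrambled library, and the groups still did not overlap. Dock1, another activator of Rac (503 kb), changed by -0.61 (adjusted p = 0.0177, edgeR).

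Mllt10, Rsrc1 and Ptprg were 3 further fallen genes of long span. Mllt10, a cofactor of the H3K79 methyltransferase Dot1l (157 kb), was at 86.1, 99.7 and 103 CPM with the inhibitor and 148, 147 and 155 CPM with scrambled (-0.65 ± 0.10, SE, adjusted p = 0.0129, edgeR). Rsrc1, a splicing-related protein with arginine and serine repeats (377 kb), was at 37.5, 42.8 and 42.6 CPM with the inhibitor and 68.0, 62.9 and 68.8 CPM with scrambled (-0.70 ± 0.11, adjusted p = 0.014). Ptprg, a receptor tyrosine phosphatase (689 kb), was at 25.4, 29.6 and 37.2 CPM with the inhibitor, 54.4, 51.2 and 52.1 CPM with scrambled and 60.4, 56.3 and 68.0 CPM in untreated cells (-0.80 ± 0.13, adjusted p = 0.0144). Every inhibitor library of Ptprg was below all 6 controls, and its difference from untreated cells was -1.01 with an adjusted p of 0.0251 in edgeR's test.

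The longest of the fallen genes was Immp2l, which encodes a subunit of the mitochondrial inner membrane peptidase (932 kb). It was at 1.54, 1.85 and 1.13 CPM with the inhibitor and at 3.91, 4.98 and 3.25 CPM with scrambled (-1.42 ± 0.27, SE, adjusted p = 0.0415, edgeR). Ext1, a polymerase of heparan sulfate (282 kb), and Gpc3, a heparan sulfate proteoglycan (342 kb), changed by -0.77 and -0.72. The F-box protein Fbxl17 (443 kb) changed by -1.09, the presynaptic protein Rims2 (486 kb) by -0.95, the methyltransferase Smyd3 (566 kb) by -0.71 and the transcription factor Glis3 (421 kb) by -0.87, all lower in each batch. Bcas3 (473 kb), the tetraspanin Tspan9 (182 kb) and Eipr1 (118 kb) changed by -0.78, -0.63 and -0.73.

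Of the 26 genes, 5 were shorter than 50 kb. The zinc finger gene Zfp275 (16.5 kb) was at 19.6, 26.3 and 24.99 CPM with the inhibitor and 41.5, 42.5 and 38.25 CPM with scrambled (-0.80 ± 0.13, SE, adjusted p = 0.0144, edgeR). The methyltransferase gene Mettl4 (27.4 kb) was at 8.25, 9.72 and 11.5 CPM with the inhibitor and 21.9, 16.9 and 18.8 CPM with scrambled (-0.97 ± 0.17, adjusted p = 0.0193). Gata2, a transcription factor of blood formation (13.1 kb), was at 51.9, 64.2 and 58.8 CPM with the inhibitor and 84.6, 87.5 and 93.5 CPM with scrambled (-0.61, adjusted p = 0.0217). Untreated cells had 69.5, 69.7 and 34.0 CPM of Gata2, and the difference over untreated was 0.06 (adjusted p = 0.914, edgeR). The lysosomal exchanger Clcn7 (28.7 kb) and Fam193b (31.8 kb) changed by -0.58 and -0.75, and Ankhd1, of intermediate span (98.9 kb), by -0.57.

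**Figure D2:**
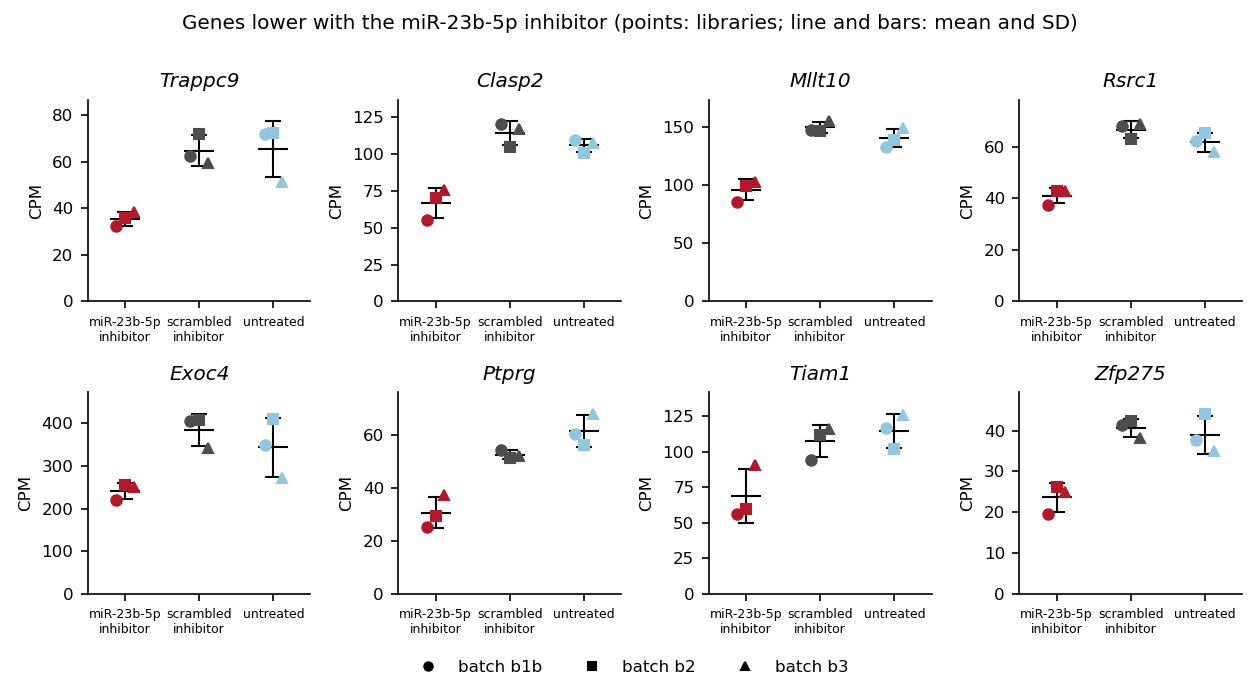
CPM (y axis, from 0) of 8 fallen genes in the miR-23b-5p inhibitor, scrambled inhibitor and untreated libraries, one point per library with its shape for the batch, and lines and bars for mean and SD (n = 3). In all 8 panels the 3 inhibitor points lie below the 3 scrambled points, for example 32.4 to 38.3 against 59.4 to 72.2 CPM for Trappc9. Zfp275 is the only gene shown that is shorter than 100 kb.

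The 26 fallen genes were also mostly lower than in untreated cells, a comparison that shares the inhibitor libraries and so is no separate replication. Of them, 25 were below 0 over untreated, with a median log2 fold change of -0.71, and 22 had no overlap with the untreated libraries. The share of all tested genes without such overlap was not taken, so the 22 cannot be set beside it. Their median for scrambled over untreated was 0.07. A fit of all 48 libraries, which estimates the spread of each gene over all 16 conditions, called 85 genes lower (0.624%) and 18 higher (0.132%) at an adjusted p of at most 0.01. Of these 85, 50 (58.8%) were in the top 10% of span. The 85 were lower in all 3 batches, which is no added support because the call uses the same inhibitor and scrambled libraries. Trappc9 had an adjusted p of 0.000881 there and Clasp2 1.02e-07. Of the 45 genes past 0.05 in the 6 libraries, 38 passed 0.05 with the same sign in the 48, where 86 genes were higher (0.632%) and 184 lower (1.35%) at that threshold.

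Over all tested genes, those of longest genomic span had the lowest median change, a group looked at after the data had been seen. Span and length were compared in 10 equal bins of the tested protein-coding genes. The 1281 genes of the longest bin by span (116 kb and longer, median 179 kb, called long-span genes here) had a median log2 fold change of -0.09, and 64.8% of them were below 0. The median was -0.10, -0.11 and -0.06 in batches b1b, b2 and b3, and the other bins had medians of -0.014 to 0.021. Of the long-span genes, 19 were lower and 1 higher at an adjusted p of at most 0.05, and 210 lower and 39 higher at an unadjusted p under 0.05. In 183 of them (14.3%) all 3 inhibitor libraries were below all 3 scrambled libraries, and in 27 (2.11%) above. Over all tested genes these shares were 4.47% and 4.98%. The slope over 12807 protein-coding genes was -0.017 log2 units per doubling of span, with batch values of -0.026, -0.0014 and -0.024. This is a description across genes, which are not independent replicates.

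For transcript length, as RSEM gives it per gene, the batches did not share a direction. The slope over 13618 genes was -0.0049 log2 units per doubling, with batch values of 0.035, 0.011 and -0.064 (SD 0.052). The per-library slopes of inhibitor and scrambled libraries were compared in an exact sign-flip permutation test over the 3 batches (two-sided p = 1, where 0.25 is the smallest p possible). Bins by transcript length had medians between -0.015 and 0.0088 for protein-coding genes. In single batches the bin of shortest transcripts (median 0.908 kb) was at -0.11 in b1b, -0.024 in b2 and 0.17 in b3. Inhibitor fragments were longer than scrambled fragments by 62.4 bases in batch b1b and shorter by 32.1 and 67.1 bases in b2 and b3.

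**Figure D3:**
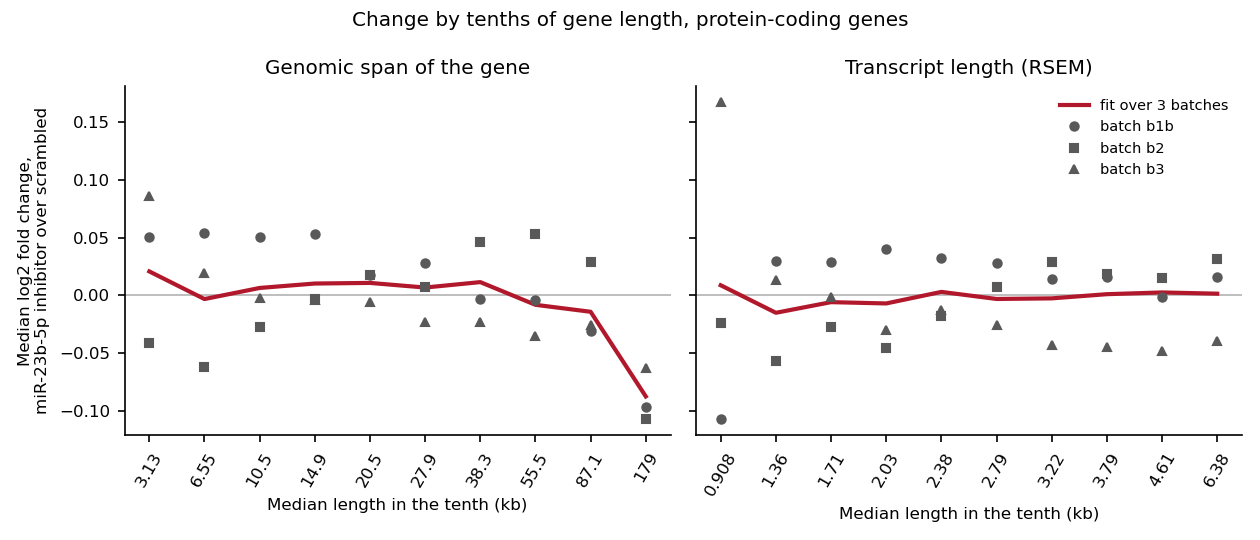
Median log2 fold change of the miR-23b-5p inhibitor over scrambled (y axis) in 10 equal bins of the tested protein-coding genes, by genomic span (left) and by RSEM transcript length (right), each bin at its median length in kb (x axis). The line is the fit over 3 batches and the points are single batches. By span the last bin is at -0.09 with all 3 batches below 0, and by transcript length no bin is below 0 in all 3 batches.

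The 10 genes of greatest transcript length with a mean count of at least 500, and the 10 of least, did not pass the test. Among the longest, Dync1h1, the dynein heavy chain with a 14.0 kb transcript on a 65.5 kb gene, had a log2 fold change of 0.06 and Kmt2a, a histone methyltransferase (77.9 kb), one of 0.10. Lpp, an adhesion protein with a 15.0 kb transcript on a 599 kb gene, was at -0.52 (adjusted p = 0.0981, edgeR) and Dnah8 (253 kb) at -0.39. Zfhx3, whose span is 1019 kb, was at -0.15. The shortest were mostly ribosomal protein genes, such as Rps27 at 0.26 ± 0.19 and Rps29 at 0.08 ± 0.21 (SE), and lay between -0.02 and 0.26.

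Span and transcript length, GC content and expression level are related over genes, so span was also examined beside them. In a linear model of 12684 genes with span, coding length, 3′ UTR length, GC content and log2 CPM, the coefficient of span was -0.035 per doubling, and it was -0.044, -0.036 and -0.018 in the single batches. That of coding length was 0.043 and that of 3′ UTR length 0.0038. The coefficient of expression level was -0.040 per unit of log2 CPM, with -0.036, -0.046 and -0.038 in the batches. Genes were kept by their mean raw count over both groups, so genes of low level that were higher with the inhibitor could be kept more readily. The part of that selection in this coefficient, and in the group of lowest expression below, was not tested. For GC content it was -0.0063 per percentage point, with 0.012, -0.025 and -0.0047 in the batches. In 3 equal groups by transcript length, long-span genes had medians of -0.15 (128 genes), -0.08 (293) and -0.08 (860) from shortest to longest, and the other genes 0.00033, 0.0029 and 0.014. In 3 groups by expression, long-span genes were at -0.00026, -0.12 and -0.11 from lowest to highest, and the other genes at 0.12, 0.0027 and -0.035. In the groups of lowest and highest GC content the batches differed in sign, and the middle group was below 0 in each (-0.066, -0.17 and -0.052).

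The library rather than the gene is the replicate, so a single value was taken per library: the median, over long-span genes, of log2 CPM less the mean of the batch. It was -0.056, -0.083 and -0.029 in the miR-23b-5p libraries, against 0.034, 0.025 and 0.034 in scrambled and 0.047, 0.031 and 0.052 in untreated libraries. The inhibitor libraries lay below both references without overlap. The difference from scrambled was -0.090, -0.11 and -0.063 in the 3 batches (mean -0.087, SD 0.023) and from untreated -0.10, -0.11 and -0.081. In a two-sided exact sign-flip permutation test over the 3 batches p was 0.25 against scrambled and 0.25 against untreated, the smallest that 3 batches allow. This group of genes was chosen after the data had been seen. Among the 16 conditions the group mean of miR-23b-5p, -0.056 ± 0.027 (SD, n = 3), was the second lowest. That of the miR-135b-3p inhibitor was -0.10 ± 0.020 and that of miR-1946b -0.056 ± 0.023, while miR-100-5p was highest at 0.068 ± 0.020.

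**Figure D4:**
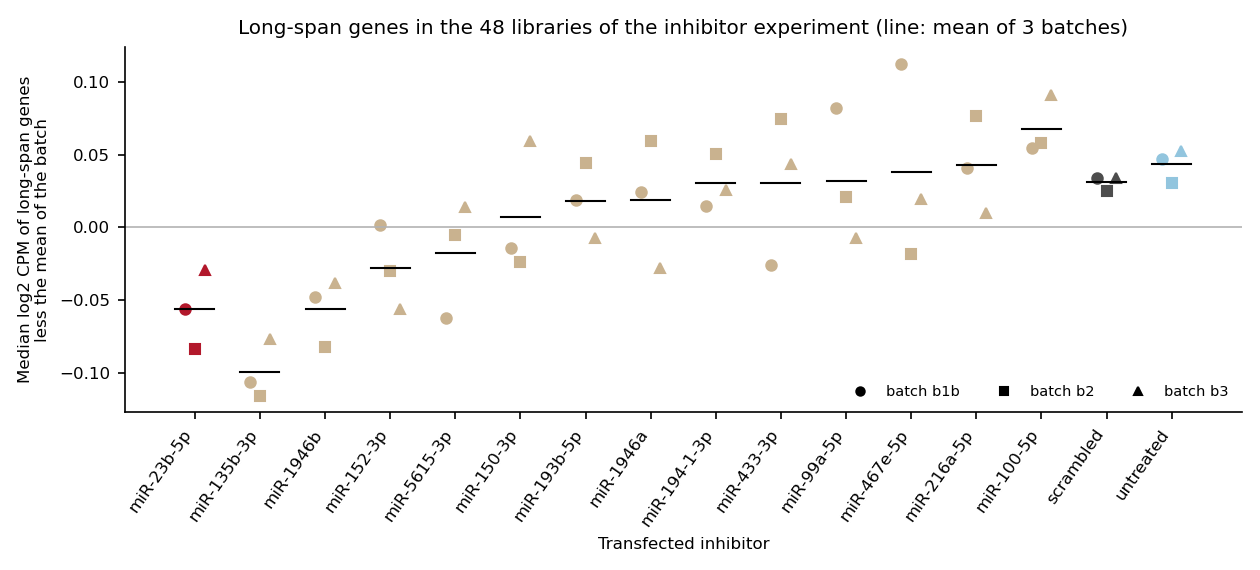
Median over long-span genes of log2 CPM less the mean of the batch (y axis) in the 48 libraries of the inhibitor experiment, by transfected inhibitor (x axis), with a line for the mean of the 3 batches. The miR-23b-5p points lie between -0.083 and -0.029 and the scrambled points between 0.025 and 0.034. The miR-135b-3p and miR-1946b points also lie below 0 in all 3 batches.

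Technical values of the libraries were set beside this measure over the 48 libraries, each less the mean of its batch (4 relations). For the long-span median and mean fragment length, Pearson's r was 0.11 and Spearman's rho 0.13 (permutation p within batch 0.45 and 0.39, the same when adjusted over the 4 relations). With library depth r was -0.31 and rho -0.21 (permutation p 0.043 and 0.16, adjusted 0.057 and 0.22). The r with depth was -0.40, -0.34 and -0.045 in batches b1b, b2 and b3. Without the 2 libraries of most extreme depth for their batch it was -0.039. They were the miR-23b-5p library of batch b2 (44.1 M) and the miR-135b-3p library of batch b1b (36.6 M), whose long-span medians were -0.083 and -0.11. These 2 libraries belong to the 2 conditions of lowest group mean, so leaving them out removes depth and condition together. The slope on transcript length was related to fragment length (r = 0.72, rho = 0.70, both with a permutation p within batch of 1e-05, the smallest that the draws can give, adjusted over the 4 relations 4e-05), with r of 0.66, 0.85 and 0.70 in the 3 batches and 0.66 without the 2 farthest libraries. The long-span median had an r of 0.54 and a rho of 0.55 with that slope (permutation p 0.0001 and 7e-05, adjusted 0.0002 and 0.00014), and an r of 0.54 without the 2 farthest libraries. Within batches this r was 0.64, 0.30 and 0.74. Both of these measures come from the same log2 CPM over overlapping genes. Of the 1281 long-span genes, 860 were in the group of longest transcripts, so this relation is partly built in and its p is no support for a technical part. The part of fragment length or depth in the difference of long-span genes was not tested. In bulk RNA, fewer cells that express a gene and less RNA per cell cannot be told apart.

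Most genes called higher came from transcripts that share most of their sequence with other genes. Each called gene's longest transcript was cut into words of 50 bases and these were looked up in the transcripts of all other genes. Of the 26 fallen genes, 24 shared under 10% of their words and 1 shared at least 50%. Of the 19 higher genes, 13 shared at least 50% and 1 under 10%, with a median of 90.0%. Words were looked up for called genes and targets only, so the share over all tested genes is not known. For such genes the deposited values depend on how the counting divided fragments between copies.

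Pde2a, a cyclic nucleotide phosphodiesterase, had the largest log2 fold change that was not against a group at 0, and it is such a case. It was at 3.67, 7.17 and 4.32 CPM with the inhibitor and 0.170, 0.987 and 0.524 CPM with scrambled (3.26 ± 0.35, SE, adjusted p = 0.000718, edgeR). The gene model Gm45837 overlaps Pde2a on the same strand (chr7:101410886-101512819 against chr7:101421691-101512827) and shares 95.6% of its words with it. Gm45837 had 0 counts in the 3 inhibitor libraries and 109, 152 and 50 counts in the scrambled libraries, and was at 0 in 19 of the 42 other libraries. Added together, the pair was at 3.67, 7.17 and 4.32 CPM with the inhibitor, 4.80, 7.51 and 5.76 CPM with scrambled and 4.85, 7.53 and 3.30 CPM in untreated cells. The summed values overlap, and all 3 batch differences of the sum were between -0.43 and -0.07. These sums, and the word counts, were added after the data had been seen.

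For 4 further genes called higher the sums overlapped as well. Pgk1-rs7, a copy of the glycolytic gene Pgk1, had 240, 244 and 0 counts with the inhibitor and 0 in each scrambled library, and 38 of the other 42 libraries had 0. Summed with Pgk1 and Gm5537 it was at 1244, 1410 and 1425 CPM with the inhibitor and 1357, 1498 and 1512 CPM with scrambled. Gm10259, with 170 counts in 1 inhibitor library and 0 in the other 5, Gm2260 and Gm28539 had sums with their closest genes (Kpna2, Anxa11 and Hira among them) that overlapped between the groups. No fold is given for genes at 0 counts in a group.

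Zscan4 genes summed with their copies were above all 3 scrambled libraries in each inhibitor library. Zscan4 genes encode SCAN-domain zinc finger proteins that are transcribed in 2-cell embryos and, in mESC cultures, in a small share of cells called 2-cell-like, where they are known for a role in telomere maintenance. Zscan4e (chr7:11306378-11310682) was at 4.29, 4.18 and 2.80 CPM with the inhibitor, 0.638, 0.901 and 0.419 CPM with scrambled and 1.19, 1.17 and 0.412 CPM in untreated cells (log2 fold change 2.50 ± 0.33, SE, adjusted p = 0.00492, edgeR). Zscan4-ps2 was at 7.28, 7.17 and 2.95 CPM with the inhibitor and 1.70, 1.24 and 1.36 CPM with scrambled (2.03 ± 0.29, adjusted p = 0.00828). In batch b3 both were lower than in the other inhibitor libraries and still above every scrambled library. Zscan4c (1.75, adjusted p = 0.0146) and Zscan4f (1.303, adjusted p = 0.0265) passed 0.05 in edgeR's test, and Zscan4a (1.36), Zscan4-ps3 (1.26) and Zscan4d (0.89) did not pass it.

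Summed over the 7 tested Zscan4 genes, a family taken up after its values had been seen and whose reads cannot be divided with certainty, the level was 36.1, 35.9 and 17.2 CPM with the miR-23b-5p inhibitor, 10.4, 10.9 and 9.01 CPM with scrambled and 10.8, 11.1 and 6.49 CPM in untreated cells. The 3 inhibitor libraries exceeded all 6 controls. The 4 tested Usp17l genes, deubiquitinases of a family that is likewise on in 2-cell embryos, summed to 14.7, 15.9 and 8.25 CPM with the inhibitor, 3.91, 4.51 and 2.41 CPM with scrambled and 3.52, 4.84 and 3.20 CPM in untreated cells. Usp17le (2.14) and Usp17la (2.07) each had an adjusted p of 0.012 in edgeR's test, Usp17lb (1.78) one of 0.0515, and Usp17lc (0.84) one of 0.697. Usp17le and Usp17la share 30.8% and 19.3% of their words with other genes. The count minimum was taken over inhibitor and scrambled libraries together, so a member could pass it through the inhibitor libraries alone. Zscan4e, for example, had 89, 185 and 57 counts with the inhibitor and 15, 21 and 4 with scrambled. The sums of both families are therefore descriptions and no added support.

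**Figure D5:**
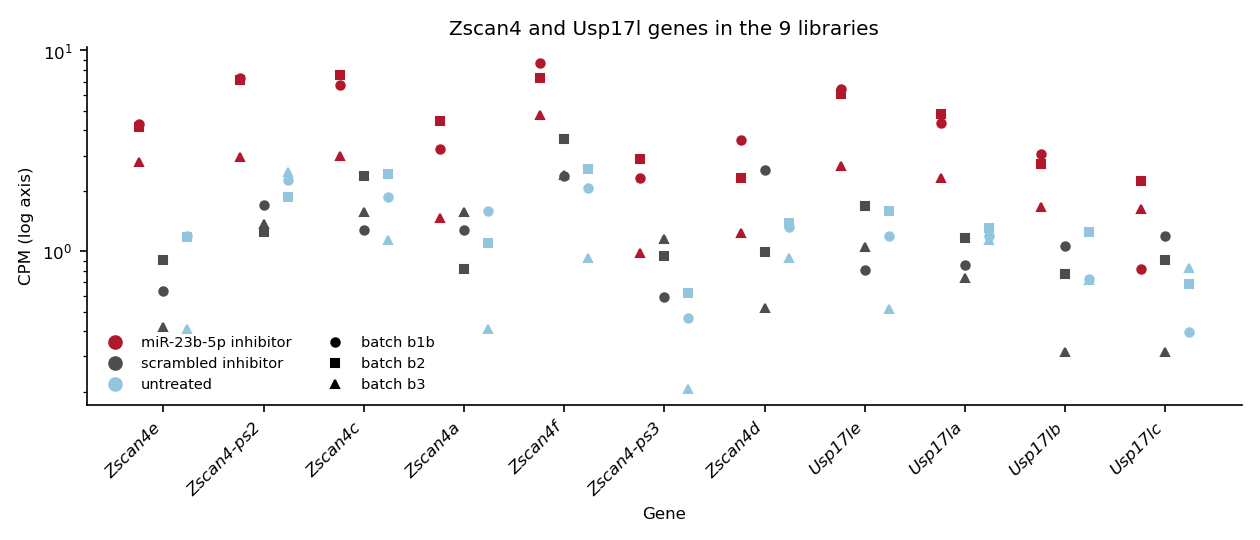
CPM on a log axis of 7 Zscan4 and 4 Usp17l genes (x axis) in the miR-23b-5p inhibitor, scrambled inhibitor and untreated libraries, one point per library with its shape for the batch. For Zscan4e the inhibitor points are at 2.80 to 4.29 CPM and the scrambled points at 0.419 to 0.901 CPM. The groups overlap for Zscan4a, Zscan4-ps3, Zscan4d and Usp17lc.

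The list of 2-cell-like markers had 10 genes, of which 6 were tested. All 6 were above 0, 2 of them higher at 0.05 and 0 at 0.01, with a median of 0.87 (0.38, 1.07 and 0.91 in the batches) against 0.0004 over all tested genes. Dppa2 and Dppa4, which are active in most mESCs, are among the 6. Usp17lc is another of the 6, with 17, 99 and 33 counts with the inhibitor and 28, 21 and 3 with scrambled. Its scrambled counts alone would not have passed the count minimum, which was taken over both groups together. The signs and the median of this list therefore include a member kept through its inhibitor libraries, and are descriptions only. Of the remainder of the list, Tcstv1, Tcstv3 and Zfp352 had 0 to 7 counts in each library, and Tmem92 had 18, 41 and 17 counts with the inhibitor and 8, 15 and 3 with scrambled.

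Gm8038, a processed pseudogene on chromosome 6, was at 14.6, 12.0 and 9.13 CPM with the inhibitor and 4.34, 4.85 and 3.77 CPM with scrambled (1.46 ± 0.18, SE, adjusted p = 0.00382, edgeR). It shares 97.5% of its words with Gm4782, and with its 3 closest copies it summed to 17.0, 13.8 and 10.3 CPM with the inhibitor and 5.70, 5.67 and 4.30 CPM with scrambled, so the group of copies was higher in each batch. Sums of Gm21761, Gm21293 and Gm16429 with their copies were also above all 3 scrambled libraries. For Gm21293 and 6 copies these were 12.8, 14.1 and 9.72 CPM with the inhibitor and 4.97, 5.24 and 3.04 CPM with scrambled.

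Gm14296, a gene model of chromosome 2, was at 8.83, 11.1 and 12.4 CPM with the inhibitor and 4.25, 2.23 and 2.73 CPM with scrambled (1.80 ± 0.24, SE, adjusted p = 0.00508, edgeR). Untreated cells had 6.64, 3.04 and 18.04 CPM, which spans the inhibitor values, and the difference over untreated was 0.51 (adjusted p = 0.575). Myh13, a myosin heavy chain known from extraocular muscle (49.9 kb), was at 114, 89.0 and 133 CPM with the inhibitor and 61.0, 58.4 and 98.1 CPM with scrambled (0.65 ± 0.11, adjusted p = 0.0196). The groups of Myh13 overlapped across batches, and the value was higher within each batch. The MHC class I genes H2-Bl (0.77, adjusted p = 0.0244) and H2-Q7 (0.84, adjusted p = 0.0415) were higher as well, and 11.8% and 27.1% of their words are shared with other genes.

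Of 33 gene lists of pathways, complexes and cell types, the 2-cell-like markers were the only list with a gene past 0.05 in edgeR's test, against 45 of 13618 genes overall (0.33%). At an unadjusted p under 0.05, 572 genes were higher and 598 lower. Medians of other lists are differences to be read beside 0.0004 for all genes (6819 above and 6799 below 0). Of 18 naive pluripotency genes 16 were below 0, with a median of -0.15 (-0.08, -0.30 and -0.11 in the batches), and Tdh, threonine dehydrogenase, was the one of lowest p (-0.35, adjusted p = 0.275). The 20 tested genes of branched-chain amino acid breakdown, the pathway of Acad8, had a median of -0.12 with 17 below 0. Among them Pcca, a subunit of propionyl-CoA carboxylase on a 357 kb gene, was at -0.34 (adjusted p = 0.383).

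Lysosomal and endocytic genes had a median of -0.11 with 20 of 23 below 0, and those of hypoxia and glycolysis -0.08 with 22 of 27 below 0. In the miRNA pathway 18 of 23 genes were below 0 (median -0.09), and Dgcr8, the partner of Drosha in miR processing, was at -0.52 ± 0.11 (SE, adjusted p = 0.0695, edgeR). Cytosolic ribosomal protein genes had a median of 0.07 whose batches were -0.27, 0.04 and 0.39, and oxidative phosphorylation genes one of -0.02 with batches of -0.30, 0.03 and 0.25. Both lists consist of short transcripts, and their order over the batches is that of the bin of shortest transcripts above. Markers of extraembryonic endoderm, neuroectoderm, mesoderm, trophoblast and fibroblasts had medians of 0.0037, 0.14, 0.02, 0.07 and 0.16 over 10, 7, 5, 5 and 3 tested genes. Summed levels of these lists in the 3 inhibitor and the 3 scrambled libraries overlapped for each of the 5 (neuroectoderm 135 to 153 against 131 to 136 CPM, fibroblast 141 to 206 against 114 to 234 CPM, trophoblast 117 to 142 against 120 to 131 CPM), and their part in the results was not tested.

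The mimic of miR-23b-5p, which raises the miR instead of lowering it, was transfected in a separate experiment at 1X for 24 h with its own scrambled mimic (3 libraries each, 10.2 to 19.96 M counts). Over 12397 tested genes 0 were higher and 0 lower at an adjusted p of at most 0.01 or 0.05 in edgeR's test, with 431 higher and 474 lower at an unadjusted p under 0.05. Log2 fold changes were -0.27 ± 0.22 for Acad8, -0.27 ± 0.10 for Nipsnap1, -0.06 ± 0.13 for Gnb2 and 0.33 ± 0.10 for Hmgb2 (SE, n = 3 per group, adjusted p = 0.787, 0.654, 0.928 and 0.625). Doses and times differ from those of the inhibitor, and the values are set side by side only.

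Of the 25 fallen genes tested with the mimic, 14 were also below 0 there, with a median of -0.02. Trappc9 was at -0.01 ± 0.13 and Clasp2 at -0.19 ± 0.13 (SE). Long-span genes had a median of -0.06 with the mimic, but 0.035, -0.023 and -0.18 in the 3 batches, and in the last of these mimic fragments were 399 and scrambled mimic fragments 453 bases long. Genes with a 3′ UTR seed match had a median of -0.08 with the mimic and those without it 0.01, and in 4 bins of 3′ UTR length from short to long the medians with and without it were -0.06 and 0.07, -0.04 and 0.02, -0.05 and -0.01, and -0.11 and -0.05. Zscan4e was at -0.37 ± 0.34 and Usp17le at 0.52 ± 0.53 with the mimic (SE).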

How the data were processed

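The RNA values are expected counts per gene, which the authors estimated with RSEM 1.3.1 after trimming (Trimmomatic 0.38) and stranded alignment (STAR 2.6.1a) to mm10, and deposited unscaled. They were rounded to whole numbers here. The small RNA values are likewise deposited estimated counts of reads per miR (the authors used Bowtie 1.0.0-1 and miRDeep2). The transcript length is another deposited RSEM value, and mean fragment length is its difference from the effective length. Spans, UTRs and coordinates are from GENCODE M21 (GRCm38), which matched 13612 of 13618 tested genes.

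Genes with a mean count above 20 were tested with edgeR 4.0.16 in R 4.3.3 (TMM, quasi-likelihood test, batch as block, Benjamini-Hochberg, threshold 0.01, 0.05 as an alternative), and with DESeq2 1.42.0 as an alternative. CPM are on the TMM scale of all 48 inhibitor libraries. The labels place each control in each batch. Deviations from the group means correlated at 0.32, 0.22 and 0.27 between libraries of one batch and at -0.28 to 0.07 between batches. The fitting was tested on simulated counts.

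Genes are named where past 0.01 with a mean count of at least 50 (10 of largest change and 5 of lowest p per direction, alike in 3 batches), as targets, as the 3 members of lowest p per list, as the 10 longest or shortest transcripts, and, after their values were seen, where past 0.05 (1 such gene is not reported here). Members, lists and tests were chosen with earlier results of these data known. Figures were drawn with matplotlib 3.10.9.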

Additional observations from a re-analysis of the deposited data

Results flagged for a closer look

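The level of miR-23b-5p at 72 h of retinoic acid had a library far from the others. It was at 0 CPM in run 7, against 5.21, 5.13 and 4.55 CPM in runs 3, 5 and 6. Run 7 had 1.06e+06 miR reads at 72 h, where a count of 0 allows up to 2.82 CPM (counting error only), below the other runs. In the same library miR-23b-3p was at 6.12 CPM, against 230.2 to 608 CPM in the other runs. For miR-23b-3p, run 7 was below the other runs at each time from 6 h on, not at 72 h alone. It was at 78.1 CPM against 856 to 2320 CPM at 6 h, and at 27.9 CPM against 339 to 644 CPM at 96 h. About 1 in 20 groups of this size stands apart in this way by chance.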

How the results depend on the processing

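At an adjusted p of at most 0.01, against 6 higher and 2 lower, DESeq2 gave 10 and 22, no filter on low counts 63 and 72, a mean count above 100 gave 0 and 0 (391 and 472 at an unadjusted p under 0.05), the fit without the replicate block gave 0 and 1, all 48 libraries in the fit 18 and 85, untreated cells as reference 0 and 0 (877 and 1067), transcript length offsets 10 and 21, and genomic span offsets (added after seeing the data) 5 and 1. DESeq2's size factors gave 6 and 2, and the threshold of 0.05 gave 19 and 26. Leaving out 1 library, which also leaves its batch partner without a counterpart, gave 0 to 34 higher and 2 to 31 lower. The median of long-span genes was -0.12 with transcript length offsets, where the median of all tested genes was -0.032 instead of 0.0004. With span offsets, which remove the trend on span of each library by construction, it was -0.029. With 1 library left out the median of long-span genes was -0.095 to -0.078. The slope on transcript length was -0.026 to 0.022 with 1 library left out. For the targets, leaving out 1 library gave -0.0060 to 0.14 for Acad8, -0.25 to -0.079 for Gnb2, -0.17 to 0.16 for Nipsnap1 and -0.030 to 0.065 for Hmgb2. Nipsnap1 was at 0.24 over untreated. Hmgb2 was at -0.11 over untreated, -0.015 with transcript length offsets and -0.050 with span offsets. Gata2 was at 0.064 over untreated. Causes of these shifts were not tested. Depth limits genes of low level such as Immp2l and the Zscan4 genes.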

Other observations

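The mean summed Zscan4 level was also above scrambled with other inhibitors of the experiment. With the miR-23b-5p inhibitor it averaged 29.7 CPM (17.2 to 36.1). With the inhibitors of miR-1946b, miR-1946a, miR-135b-3p and miR-152-3p it averaged 53.3 CPM (13.5 to 107), 31.3 CPM (17.2 to 43.8), 28.5 CPM (12.4 to 41.6) and 27.3 CPM (18.8 to 36.8). The scrambled and untreated means were 10.1 and 9.46 CPM. The genes summed were those past the count minimum in the miR-23b-5p and scrambled libraries, which favours genes high in either group. Within its batch the miR-23b-5p library ranked 14, 13 and 15 of 16 from the lowest for Zscan4, and 14, 15 and 16 of 16 for Usp17l. For the long-span median it ranked 3, 2 and 4 of 16 from the lowest. The mean long-span median was -0.056 with the miR-23b-5p inhibitor, -0.10 with miR-135b-3p, -0.056 with miR-1946b, -0.028 with miR-152-3p and 0.019 with miR-1946a. All these conditions share the scrambled and untreated libraries, and differences between inhibitors were not tested.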
